A study of Mus musculus with 7 samples.

Results

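Defb41, a beta-defensin gene, and Gdap1, a gene of the outer mitochondrial membrane, both lie on mouse chromosome 1 and were followed in single oocytes with and without the histone methyltransferase gene Setd1b. They are 2 of the 33437 oocyte transcripts measured, and both were among the 18179 transcripts that reached 1 RPM in 3 or more libraries and were tested, where RPM scales the reads of a transcript to a fixed total of mapped reads per library. A row of the expression table was taken for a gene when the table named that gene on the strand of the transcript, and each gene had 1 such row. The pair was picked because its level was already known to be lower in oocytes without Setd1b, so the genotype difference of Defb41 and of Gdap1 is given as a description, with no test. Gdap1 had been called a neighbour of Defb41, but the lower coordinates of the 2 transcripts lie 1105.6 kb apart. Between them lie 11 other measured transcripts, and Gdap1 is outside a window of 300 kb around Defb41. Distances between transcripts are taken between lower coordinates throughout, whichever the strand.

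RNA was measured in oocytes at the germinal vesicle (GV) stage, fully grown but still arrested before the first meiotic division, from 21-day-old females. The labels give C57BL6 as the strain (C57BL/6OlaHsd in the study's methods) and Setd1b floxed/floxed for all 7 libraries, the controls included. The Setd1b cKO group (n = 4 libraries) was positive for Gdf9-Cre, a recombinase expressed in oocytes from early follicle growth onwards, and the Setd1b WT group (n = 3 libraries) is labelled negative for it. The study's methods also count Cre-carrying females with 1 intact Setd1b allele as WT, and whether any of the 3 came from such a female is not told beyond the labels. Each library came from 1 oocyte, and whether any of the oocytes had the same mother is not labelled, so that p-values measure the spread between these oocytes and are too small for a comparison of animals if some did.

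Beta-defensins are small secreted cationic peptides held in a fold by pairs of cysteines. They act against microbes at epithelial surfaces, and many members of the family are made in the epididymis, where they coat sperm. GDAP1 sits in the outer mitochondrial membrane, resembles glutathione S-transferases and takes part in the division of mitochondria and peroxisomes, and its mutation in humans causes Charcot-Marie-Tooth neuropathy. SETD1B places methyl groups on lysine 4 of histone H3, a mark found at the start of transcribed genes.

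Defb41 is transcribed from the minus strand, and its row (TCONS_00004288) covers chr1:18250915-18265138 in GRCm38. Its 5′ end equals the annotated start of the gene, 0 bases away. GENCODE gives it 2 protein-coding transcripts of 2 exons each, one with 467 spliced bases and 62 codons and one with 198 spliced bases and 65 codons, which share their first coding exon and differ in the second. The deposited row merges them, so which of them the oocyte makes is not told by the values. A processed pseudogene on the same strand, Gm17837, lies inside the span of Defb41, and whether its reads were counted in the row is not told by the values. The promoter and the coding sequences are shown because they are what the row's reads start from and code for. The promoter is the 250 bases upstream of the start, chr1:18265139-18265388 on the minus strand, from RefSeq (GRCm38.p6), with TTTAAA in capitals.
Defb41 upstream: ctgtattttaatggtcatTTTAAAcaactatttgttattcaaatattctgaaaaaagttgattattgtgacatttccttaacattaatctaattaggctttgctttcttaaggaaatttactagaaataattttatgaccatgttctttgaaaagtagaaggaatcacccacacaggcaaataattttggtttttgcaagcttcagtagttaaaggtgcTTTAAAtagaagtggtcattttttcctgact
The coding sequences, from GENCODE (GRCm38), run from chr1:18251200-18265080 for the 62-codon form and chr1:18260524-18265080 for the 65-codon form on the minus strand, and cysteine codons are in capitals.
Defb41, 62 codons: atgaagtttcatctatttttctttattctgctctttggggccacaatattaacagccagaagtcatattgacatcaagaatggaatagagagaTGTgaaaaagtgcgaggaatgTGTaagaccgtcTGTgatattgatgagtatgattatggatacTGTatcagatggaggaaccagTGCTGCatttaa
Defb41, 65 codons: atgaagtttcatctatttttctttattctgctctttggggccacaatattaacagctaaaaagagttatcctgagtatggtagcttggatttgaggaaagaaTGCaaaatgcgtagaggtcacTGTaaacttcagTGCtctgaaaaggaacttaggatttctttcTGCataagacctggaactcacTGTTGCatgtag
Each of them holds 6 cysteine codons, and they are identical over the first 56 bases, which includes the 55 coding bases of the first exon.

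Motifs were searched on both strands of the 250 bases, and each share is that of 32851 promoters of the same length with a match. TTTAAA had 2 matches, at 232 and 31 bases before the start, and 12.1% of the promoters hold it. TAATTA had 1 match, starting 161 bases before the start (4.84% of the promoters). There was no match to TATAAA (12.4%), TAATTG (7.17%), CANNTG (66.2%) or GGGCGG (32.7%). The 250 bases hold 0 CG dinucleotides, against a median of 6, and 7.87% of the promoters have as few. Their G and C content was 28.4% against a median of 52.4%, and 1.04% of the promoters are at or below it. The promoter of Gdap1 is not shown.

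Gdap1 is transcribed from the plus strand, and its row (TCONS_00000293) covers chr1:17145362-17164280, again with a 5′ end 0 bases from the annotated start. GENCODE gives 1 protein-coding transcript, with 6 exons, 3949 spliced bases and 358 codons. Neither Defb41 nor Gdap1 overlaps another measured transcript, whereas 33.5% of all rows do.

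The libraries held 8582493 to 12972365 mapped reads, and 1 read was worth 0.0771 to 0.117 RPM. The oocyte markers were high in every library, with a summed level of 20500 to 23817 RPM in Setd1b cKO and 24136 to 27759 RPM in WT, and 1 of the 14 tested, Mos, was lower in cKO by the limma test given below (1.95% of all transcripts were). Of the 14, 11 had a log2 difference below 0, with a median of -0.29 against 0.12 over all transcripts. The table names Setd1b for no row by the rule used for the other genes, so its transcript (TCONS_00079175) was taken by its position over the gene, although the table names it Gm26745, a gene of the opposite strand, and it overlaps another row. It was read at 8.31, 16.7, 12.8 and 2.68 RPM in the cKO libraries and 17.7, 16.3 and 8.61 RPM in WT. These levels overlapped (log2 difference -0.61 on log2(RPM + 1), limma adjusted p = 0.533), so that reads over the whole transcript do not check the genotype labels. The share of mapped reads outside the transcripts was 13.2 to 16.4% in cKO and 9.57 to 9.90% in WT. RPM is a share of the mapped reads of a library, so a lower value of one transcript cannot be told apart from more RNA of other kinds. Scaled to the reads within transcripts, the log2 difference was -3.78 for Defb41 and -1.22 for Gdap1, and relative to the median transcript of each library it was -3.91 and -1.45.

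Defb41 was far lower in the cKO oocytes. The cKO libraries gave 1.09, 0.494, 0.609 and 1.98 RPM, which is 11, 6, 7 and 17 reads. The WT libraries gave 26.0, 66.1 and 9.36 RPM, which is 321, 858 and 100 reads. Every cKO oocyte was below every WT oocyte, and the lowest WT value was 4.72 times the highest cKO value. The mean was 1.04 ± 0.676 RPM (SD, n = 4) in cKO and 33.8 ± 29.2 RPM (SD, n = 3) in WT, so that the cKO mean was 3.08% of the WT mean, or 32.4 times lower. On the log2(RPM + 1) scale the difference, cKO minus WT, was -3.76 (SE 0.70). This was the fourth most negative of the 18179 differences (rank 4), a rank that describes the choice of the gene and was 7 on the log2 RPM as deposited.

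The pseudocount of 1 RPM presses the difference of Defb41 towards 0, because the cKO levels are near 1 RPM. With the log2 RPM as deposited the difference was -4.81, and with a pseudocount of 5 RPM it was -2.39. The pooled cKO value rests on 41 reads over 4 libraries, against 1279 reads over 3 WT libraries. In the cKO libraries 1 read more or less moves the value by 0.0824 to 0.117 RPM.

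The WT oocytes differed widely in Defb41. The highest, WT replicate 2, had 7.07 times the level of the lowest, WT replicate 3, and held 62.6% of the RPM summed over the 7 libraries. The SD of the WT values on the log2 scale was 1.35, which lay at the 99.4th percentile of the 500 transcripts closest in WT level, whose median SD was 0.318. The cKO values had an SD of 0.450, at the 47.4th percentile of the 500 transcripts closest in cKO level. Without WT replicate 2 the log2 difference was -3.09, and without WT replicate 3 it was -4.44. By level, Defb41 stood at the 76.3rd percentile of the tested transcripts in WT and at the 3.69th in cKO.

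Gdap1 was lower in every cKO oocyte but remained well read. The cKO libraries gave 36.5, 40.1, 35.4 and 41.7 RPM, and the WT libraries 98.1, 110 and 80.2 RPM. The genotypes did not overlap, and the lowest WT value was 1.92 times the highest cKO value. The mean was 38.4 ± 2.98 RPM (SD, n = 4) in cKO and 96.0 ± 14.9 RPM (SD, n = 3) in WT, so that the cKO oocytes held 40.0% of the WT level. The log2 difference was -1.29 (SE 0.13), rank 329 of the 18179 differences from the most negative (rank 682 on the log2 RPM as deposited). The values rest on 358 to 487 reads in each cKO library and 857 to 1425 in each WT library.

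In contrast to Defb41, Gdap1 was even among oocytes of a genotype. The highest cKO oocyte had 1.18 times the level of the lowest, and the highest WT oocyte 1.37 times. The SD on the log2 scale was 0.109 in cKO, at the 2.8th percentile of transcripts of like level, and 0.228 in WT, at the 34.8th percentile. Gdap1 stood at the 89.9th percentile of level in WT and the 78.0th in cKO, so that unlike Defb41 it stayed in the upper part of the transcriptome.

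**Figure D1:**
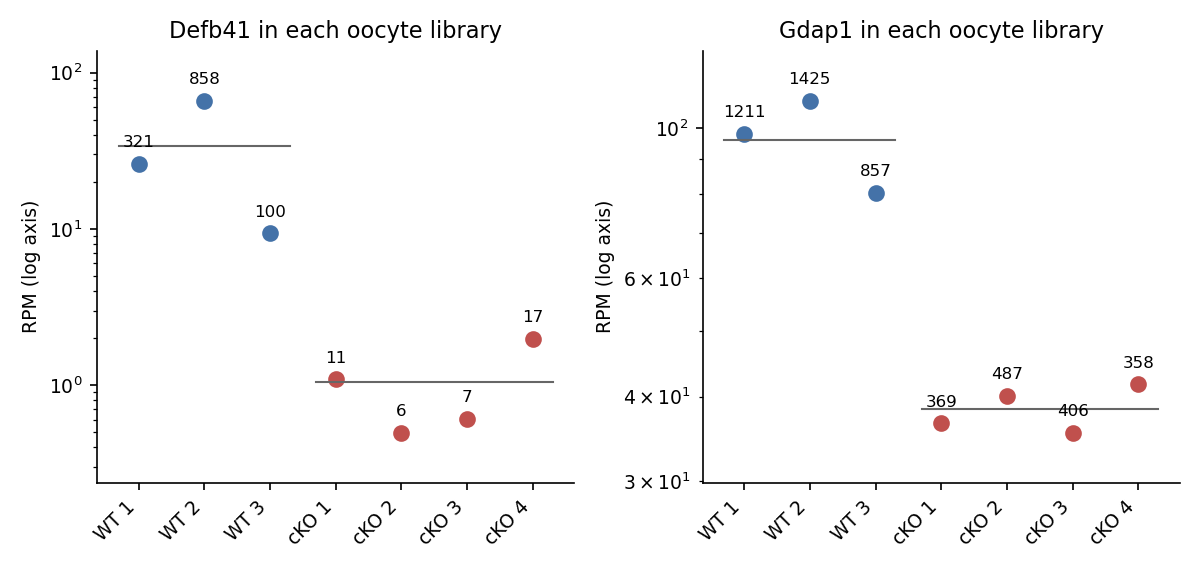
Level of Defb41 (left) and Gdap1 (right) in RPM on log axes of different range, for the 3 Setd1b WT and 4 Setd1b cKO libraries. Each point is 1 oocyte with its number of reads, and lines are the means of the RPM values; all cKO points lie below all WT points for both genes, and the WT points of Defb41 spread over 7.07 times.

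For reading these values, 355 of the 18179 transcripts tested (1.95%) were lower in cKO and 683 (3.76%) higher with limma, past a 2-fold change and an adjusted p of 0.05. In 7.14% of the transcripts every cKO oocyte was below every WT oocyte, and in 13.2% every cKO oocyte was above. Both genes were picked from this contrast, so nothing is read from their place in these shares.

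**Figure D2:**
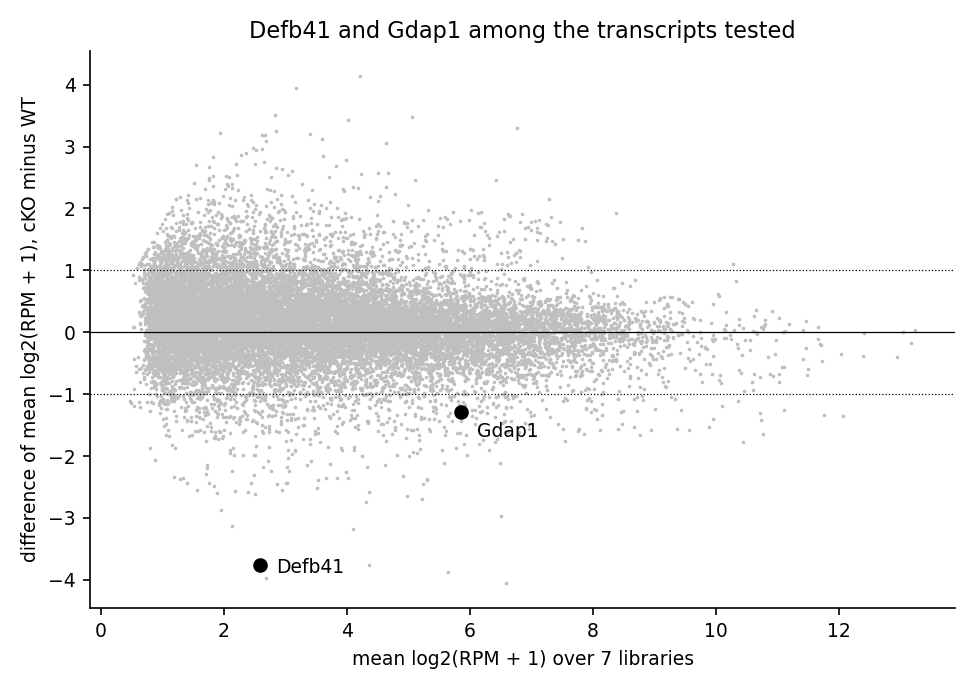
Difference of mean log2(RPM + 1), cKO minus WT, against mean log2(RPM + 1) over the 7 libraries for the 18179 transcripts tested. Dotted lines mark a change of 2-fold; Defb41 at -3.76 lies at the lower edge of the cloud and Gdap1 at -1.29 among more highly read transcripts.

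In RPM Gdap1 was above Defb41 in both genotypes, but per length of exon the order of the mean levels differed between them. Per kb of the exons of the coding transcripts (610 bases for Defb41, 3949 bases for Gdap1), the mean WT level was 55.5 RPM per kb for Defb41 and 24.3 RPM per kb for Gdap1, 2.28 times more for Defb41. In cKO the mean level was 1.71 RPM per kb for Defb41 and 9.73 RPM per kb for Gdap1, 5.69 times more for Gdap1. In single oocytes Defb41 was the higher in WT replicates 1 (42.6 against 24.8 RPM per kb) and 2 (108 against 27.8) but not in WT replicate 3 (15.3 against 20.3), and without WT replicate 2 the mean WT level of Defb41 was 1.28 times that of Gdap1. In cKO it was the lower in all 4 oocytes, at 0.810 to 3.25 against 8.95 to 10.6 RPM per kb. The 610 bases join the exons of both coding transcripts of Defb41, of 467 and 198 spliced bases. Which of them the oocyte makes, and whether reads of Gm17837 are in the row, is not known. A shorter length would raise the values of Defb41, so its order against Gdap1 in WT replicate 3 rests on the length used.

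Among WT oocytes both genes had the same order, replicate 2 above 1 above 3. In cKO both were highest in replicate 4, but the other 3 oocytes were ordered differently. Over the 7 libraries the log2(RPM + 1) values of Defb41 and Gdap1 had a Pearson r of 0.974, which includes the genotype difference they were picked for, and after removal of the genotype means r was 0.885. These points share their libraries, and the 3 WT oocytes carry most of the within-genotype spread of Defb41.

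Only 2 measured transcripts have their lower coordinate within 300 kb of that of Defb41, and neither passed the test. Gm18775, a transcribed pseudogene, lies at -255.52 kb by its lower coordinate (chr1:17995397-18036083, minus strand), and its row also covers Gm28756 and Gm28755. It was read at 4.35, 3.21, 1.65 and 1.75 RPM in cKO and 6.56, 7.94 and 6.18 RPM in WT, with no overlap. Its log2 difference was -1.13 (moderated SE 0.32, limma adjusted p = 0.0664), and with each library centred on its median transcript it was -1.29 and passed the threshold (adjusted p = 0.0471). The adjusted p ran from 0.0471 to 0.217 over all alternatives.

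On the other side, TCONS_00000308 lies at 84.839 kb by its lower coordinate (chr1:18335754-18339674, plus strand), where no gene is annotated. Its cKO values of 2.77, 1.89, 5.66 and 3.61 RPM overlapped the WT values of 0.972, 3.01 and 2.62 RPM (log2 difference 0.48, moderated SE 0.37, limma adjusted p = 0.509). Just beyond the window, TCONS_00004280, at -327.75 kb, had reads in cKO replicate 2 alone (0.329 RPM), and TCONS_00004290, at 371.74 kb, had 0 reads in every library. Of the 10 annotated genes within 300 kb, 5 had a transcript of their strand in the table, Defb41 included. No row was found for Crisp4, a sperm-coating protein gene of the epididymis, for the defensin gene Defb18 or for the defensin pseudogene Defb44-ps.

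Around Gdap1 the same window held 11 transcripts, of which 9 had a read in any library and 4 could be tested. None of the 4 passed. The best read of them was Gm28784, which starts 22.859 kb above the start of Gdap1 on the same strand. It gave 48.8, 52.3, 58.6 and 86.3 RPM in cKO and 53.2, 70.8 and 116 RPM in WT, so that the genotypes overlapped (log2 difference -0.34, moderated SE 0.30, limma adjusted p = 0.580). Like Gdap1 it was highest in cKO replicate 4, but among WT it was highest in replicate 3, where Gdap1 was lowest. Gm5251 had a log2 difference of 0.62 (adjusted p = 0.314). The unnamed TCONS_00000292 and TCONS_00004273, which overlap other rows, had differences of 0.22 (adjusted p = 0.805) and 0.92 (adjusted p = 0.203).

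Between Gdap1 and Defb41 lie 11 transcripts, all with a read in some library, and 5 could be tested. All 5 missed the threshold, and their log2 differences ran from -1.13 for Gm18775 to 0.62 for Gm5251. Of the 6 transcripts tested in the windows around the 2 genes, 0 passed, where 5.71% of all transcripts did, and with voom 0 passed too. For Gm18775 and TCONS_00004273 the unadjusted p was 0.00503 and 0.0401 in the same limma fit, and TCONS_00004273 reached 1 RPM in cKO libraries alone.

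**Figure D3:**
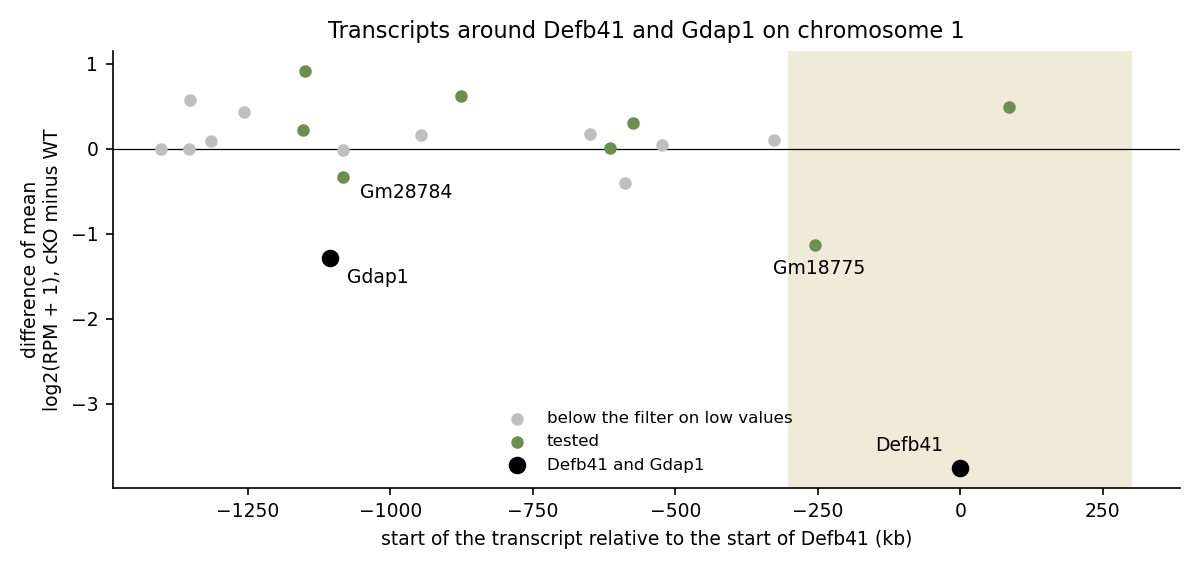
Difference of mean log2(RPM + 1), cKO minus WT, for the transcripts of chromosome 1 around Defb41 and Gdap1, against the distance of their lower coordinate from that of Defb41 in kb. The shaded band is 300 kb to each side of Defb41; all other transcripts lie between -1.13 (Gm18775) and 0.92.

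Among the other defensins 2 were lower in cKO by the test, and 5 had higher levels in cKO without passing it. Besides Defb41, 14 defensin genes had a row, 7 passed the filter on low values, 2 were lower in cKO (1.95% of all transcripts tested were) and 0 higher (3.76% were), and 4 had 0 reads in every library. The filter fixed part of this: Defa3 reached 1 RPM in the WT libraries alone, and Defb20, Defb23 and Defb4 reached it in 3 libraries only through cKO, so that these 4 had to differ to be tested and their count supports nothing. All 7 had an unadjusted p under 0.05 in the limma fit, beside 21.7% of all transcripts. The same 4 are among them, so this count supports nothing either. The 7 are described because they are few, and the last 5 were named after their values had been seen.

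The 2 past the test were alpha-defensins of chromosome 8, a group known from Paneth cells of the gut. The transcript named Defa29 (chr8:21325887-21624175) gave 2.47, 4.28, 3.57 and 3.15 RPM in cKO and 17.0, 17.5 and 24.1 RPM in WT. It was lower in every cKO oocyte (log2 difference -2.23, moderated SE 0.27, limma adjusted p = 0.00279). This row spans a cluster with other defensin genes on the opposite strand and overlaps another row, and no source says that reads were counted by strand, so its reads cannot be given to Defa29 alone. Defa3 was read at 0.0990, 0, 0 and 0 RPM in cKO, 1 read in all, and 1.13, 1.16 and 1.78 RPM in WT. It was tested only because it was above 1 RPM in WT. Its log2 difference on log2(RPM + 1) was -1.19 (moderated SE 0.26, limma adjusted p = 0.0233), and the call was lost without cKO replicate 3 (adjusted p = 0.0597), with the log2 RPM as deposited (adjusted p = 0.0562) and with a pseudocount of 5 RPM, and without any 1 of the WT libraries Defa3 no longer reached 1 RPM in 3 libraries.

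The other 5 tested members, all beta-defensins, were above every WT oocyte in all cKO oocytes (13.2% of all transcripts tested were) but did not pass. Defb20, Defb23 and Defb4 were tested only through their cKO levels, so this count supports nothing beside that share. Defb20 gave 4.45, 0.988, 1.31 and 4.19 RPM in cKO and 0.324, 0.308 and 0.655 RPM in WT (log2 difference 1.25, limma adjusted p = 0.0980). Defb50, the best read of them, gave 10.1, 6.01, 6.70 and 23.4 RPM in cKO and 3.89, 5.32 and 3.56 RPM in WT (1.08, adjusted p = 0.156). Defb23 had a log2 difference of 0.94 (adjusted p = 0.118), Defb4 of 0.93 (0.129) and Defb8 of 0.73 (0.165). The rows of Defb23, Defb50 and Defb8 overlap another row.

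**Figure D4:**
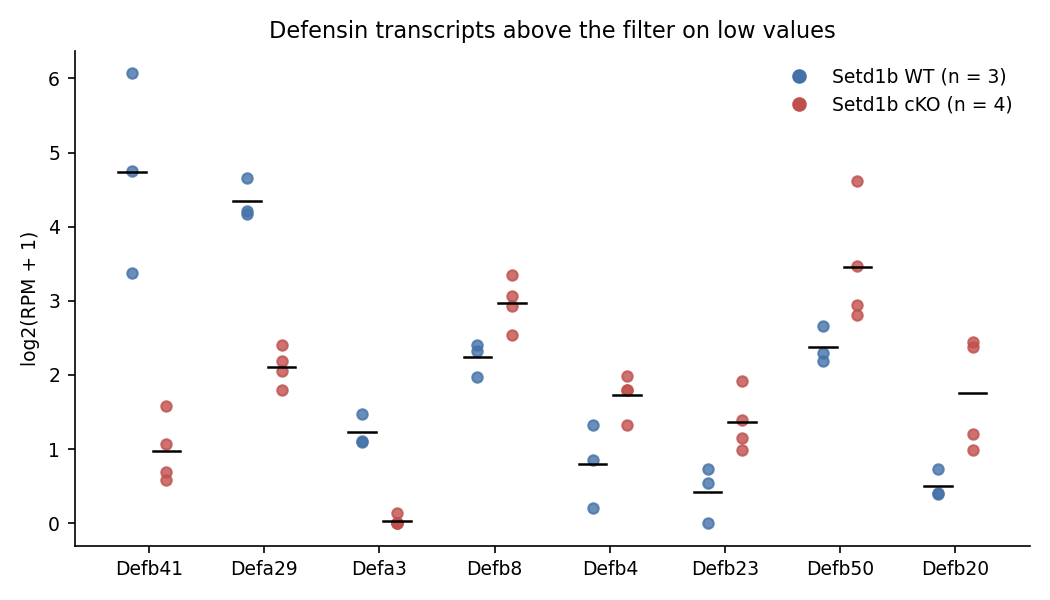
log2(RPM + 1) of Defb41 and the 7 other defensin transcripts above the filter in each WT (blue, n = 3) and cKO (red, n = 4) oocyte, with the group means as lines, ordered by the genotype difference. Defb41, Defa29 and Defa3 are lower in all cKO oocytes, and the 5 beta-defensins to the right are higher in all of them without passing the test. Defa3 met the filter through WT alone, and Defb20, Defb23 and Defb4 met it only through cKO.

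Other secreted antimicrobial proteins gave no call. Of 25 genes listed 13 had a row, 4 were tested, 0 passed in either direction (5.71% of all transcripts did), 0 had an unadjusted p under 0.05 (21.7% did), 0 passed with voom, and 7 had 0 reads in every library, among them the cathelicidin gene Camp and the lactotransferrin gene Ltf. The best read was Pglyrp1, a peptidoglycan recognition protein gene, at 18.1, 19.9, 20.5 and 34.8 RPM in cKO and 14.7, 15.2 and 23.8 RPM in WT (log2 difference 0.35, limma adjusted p = 0.538). A count of 0 among 4 genes is near the share over all transcripts and is not a result about the list. Reg3g, a C-type lectin gene of the gut, had a log2 difference of -0.80 (adjusted p = 0.348) and Wfdc15b of 0.91 (adjusted p = 0.353), and both overlapped between genotypes.

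Markers of epithelium, where defensins are usual, summed to 5.13 to 9.14 RPM in cKO and 2.25 to 5.83 RPM in WT. Of 8 listed, 4 had a row, 3 were tested and 0 passed (5.71% of all transcripts did), and Krt18 had 0 reads. Summed granulosa cell markers were at 76.6 to 90.2 RPM in cKO and 49.9 to 70.3 RPM in WT, most of it from Nr5a2 (27.4 to 28.3 RPM in WT and 32.5 to 50.8 RPM in cKO) and Cyp19a1 (17.1 to 27.3 and 19.5 to 30.6 RPM), with 12 of 15 genes in the table, 6 tested and 0 past the test, again beside 5.71% of all transcripts, and 5 of the 6 had a log2 difference above 0. The largest was that of Inha, an inhibin subunit gene, at 7.03, 11.4, 13.2 and 0.583 RPM in cKO and 0.810, 4.32 and 0 RPM in WT (log2 difference 1.70, limma adjusted p = 0.225), and Amh and Foxl2 were at 0 in all but 1 library each. Theca and stroma markers summed to 7.31 to 8.32 RPM in cKO and 2.62 to 3.74 RPM in WT, with 7 of 8 genes in the table and 1 tested. That gene, Dcn, which encodes decorin, rose (log2 difference 1.45, limma adjusted p = 0.0248) and made up most of the sum in cKO, whereas Cyp11a1 (-0.36), Col1a2 (-0.20), Cyp17a1 (-0.07) and Col1a1 (-0.02) had log2 differences below 0, Pdgfra (0.48) had one above 0, and Lum was at 0. Of the blood and immune markers 3 of 5 had a row, and Cd68, the 1 tested, rose (log2 difference 1.36, limma adjusted p = 0.0435; like Dcn among the 3.76% of all transcripts that were higher), with Hba-a1 and Lyz2 at 0. Their part in the levels of Defb41 and Gdap1 was not tested.

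Around Gdap1's function, the genes of mitochondrial shape and turnover gave no call. Of 43 listed, 36 had a row and 29 were tested, 0 passed the threshold with limma or voom (5.71% of all transcripts did with limma), and 4 had an unadjusted p under 0.05 (21.7% of all transcripts did). Their log2 differences had a median of 0.07 (0.12 over all transcripts), with 18 above 0 and 11 below, and ran from -1.07 to 0.83. By role, 10 fission genes had a median of 0.26, 8 fusion genes of -0.05, 4 transport genes of 0.18 and 7 turnover genes of 0.02.

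The 3 best read were Parl, Bnip3l and Phb. Parl, a protease of the inner mitochondrial membrane, gave 318, 353, 176 and 184 RPM in cKO and 644, 577 and 375 RPM in WT. Its cKO values lay below all WT values with a log2 difference of -1.07 (moderated SE 0.31, limma adjusted p = 0.0695). It passed when libraries were centred on the median transcript (-1.23, adjusted p = 0.0455) or without WT replicate 3 (-1.31, adjusted p = 0.0463). Bnip3l, a receptor for the removal of mitochondria, was at 397, 390, 430 and 365 RPM in cKO and 286, 295 and 282 RPM in WT (log2 difference 0.46, adjusted p = 0.181). Phb, a prohibitin gene, was at 196, 171 and 182 RPM in 3 cKO libraries but 9.32 RPM in cKO replicate 4, with 211, 180 and 108 RPM in WT (log2 difference -0.85, adjusted p = 0.642). Dnm1l, the dynamin-like protein that divides mitochondria, had a log2 difference of -0.23 (limma adjusted p = 0.595).

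The relatives of Gdap1 and the peroxisome division genes gave no call. Of 6 listed, 4 had a row, all 4 were tested and 0 passed with limma or voom, with 0 at an unadjusted p under 0.05, beside 5.71% and 21.7% of all transcripts. With 4 genes a count of 0 is near these shares and is not a result about the list. Pex11a, which encodes a peroxisome membrane protein, gave 19.2, 22.4, 17.8 and 18.1 RPM in cKO and 23.0, 21.0 and 21.9 RPM in WT, and it had a log2 difference of -0.18 (limma adjusted p = 0.695). Pex11g had a log2 difference of 0.05 (adjusted p = 0.960). Gdap1l1, the closest relative of Gdap1, was near 1 RPM, at 0.659 to 2.91 RPM in cKO and 0.324 to 1.40 RPM in WT (log2 difference 0.40, adjusted p = 0.602).

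The transcripts most like each gene over the 7 libraries were sought among 6720 tested transcripts with a symbol and a mean of at least 8 RPM, by Pearson r of log2(RPM + 1). All points share their libraries and the genotype difference, so r is a description. For Defb41 the highest were Cyp39a1 (r = 0.989), a hydroxylase of oxysterols, Sorcs3 (0.985), a sorting receptor, Gpatch3 (0.983), Zfp111 (0.977) and Pnn (0.976), which encodes the splicing protein pinin. For Gdap1 they were Dhrs3 (0.993), a reductase of retinal, Rnf141 (0.990), Sorcs3 (0.990), Ttc41 (0.986) and Trappc3l (0.985). Gdap1 was rank 7 in the list of Defb41, and Defb41 rank 21 in that of Gdap1. An r over 0.95 was reached by 17 transcripts for Defb41 and 65 for Gdap1.

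Their sizes of difference varied. Dhrs3 gave 1.09, 0.741, 0.784 and 1.40 RPM in cKO and 39.9, 42.1 and 16.1 RPM in WT, levels much like those of Defb41 but with WT oocytes less far apart. Cyp39a1 gave 20.2, 16.3, 14.6 and 21.6 RPM in cKO and 54.3, 66.3 and 38.7 RPM in WT, a cKO mean of 34.2% of the WT mean. Trappc3l, with 58.7, 66.5, 64.6 and 58.7 RPM in cKO and 158, 171 and 143 RPM in WT, stood at 39.4% of the WT mean and Rnf141 at 42.4%, next to the 40.0% of Gdap1. Pnn, at 73.5% of its WT mean, followed Defb41 in order among the oocytes with a much smaller range. After removal of the genotype means r was 0.929 for Cyp39a1 and 0.960 for Pnn with Defb41, and 0.852 for Dhrs3 and 0.593 for Trappc3l with Gdap1.

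**Figure D5:**
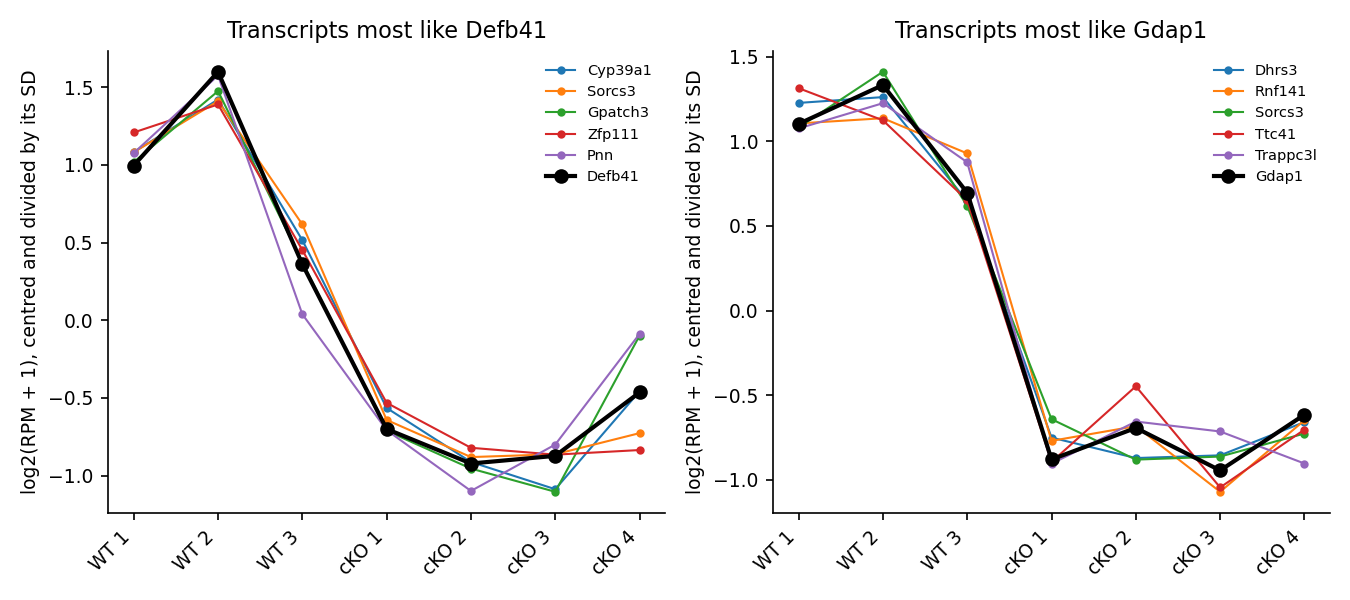
log2(RPM + 1) of the 5 transcripts with the highest Pearson r to Defb41 (left) and to Gdap1 (right) in each library, centred and divided by the SD over the 7 libraries. The black line is the gene itself; the lines step down between the 3 WT and the 4 cKO oocytes, and WT replicate 3 lies below WT replicate 2 in all of them.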

How the data were processed

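The 7 libraries, 4 Setd1b cKO and 3 Setd1b WT, hold 1 GV oocyte each. The authors trimmed reads with trim galore 0.4.2, mapped them with Hisat 2.0.5 to GRCm38 with splice sites of Ensembl 68, kept mapping qualities of at least 20 and quantified oocyte transcripts with merged isoforms in SeqMonk. The deposited values are log2 RPM. Every value above the floor of 0.9 read matched a whole read number within 0.02 read (100%), so RPM and reads were recovered from them, with values at the floor set to 0. Whether counting used the strand is not given in the sources used here.

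The genotypes were compared on log2(RPM + 1) with limma 3.58.1 (lmFit, eBayes with trend) in R 4.3.3 over the 18179 transcripts that reached 1 RPM in 3 or more libraries. A transcript passed when it changed more than 2-fold and its p after Benjamini-Hochberg adjustment was under 0.05. The study's test for counts was not used, since the deposited unit is log2, and voom on the recovered reads was an alternative. Other alternatives were pseudocounts of 0.1 and 5 RPM, the deposited log2, dropping the filter, a minimum mean of 4 RPM, median centring, quantile normalisation, no trend, a replicate block and each library left out. Scaling to reads within transcripts was added after the data had been seen.

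Defb41, Gdap1 and all gene lists were chosen with earlier results of these data known. Named were both genes, read transcripts within 300 kb of Defb41, at most 5 members past the threshold in each direction of each list or else its 3 best read, and the 5 transcripts most like each gene; Dnm1l, Camp, Ltf, 5 beta-defensins and single marker genes were named after their values had been seen. A gene that this rule selects is left out here. Promoters came from RefSeq, where 1 of the 2 genes matched, and gene models from GENCODE M21. Python 3.11.15 was used for other steps. The fit was tested on simulated data.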

Additional observations from a re-analysis of the deposited data

Results flagged for a closer look

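A library far from the others of its group was looked for in 57 values over the 4 cKO libraries, by the gap to the nearest library as a share of the range, and 6 were found, where about 3 are expected by chance. None concerned Defb41 or Gdap1. Defa3 was at 0.0990 RPM, 1 read, in cKO replicate 1 and at 0 in the other 3. Dnm1l was at 147 RPM in cKO replicate 2 and at 104 to 109 RPM in the others. Phb was at 9.32 RPM in cKO replicate 4 and at 171 to 196 RPM in the others. Rhot1, a mitochondrial transport gene, was at 69.0 RPM in cKO replicate 3 and at 58.0 to 59.7 RPM in the others. Both Wfdc15b (12.7 RPM against 2.18 to 3.05 RPM) and Pglyrp1 (34.8 RPM against 18.1 to 20.5 RPM) were high in cKO replicate 4. With 3 WT libraries the WT group could not be examined in this way.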

How the results depend on the processing

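Defb41 and Gdap1 were lower in cKO under all 18 alternatives each, a count that describes genes picked for this difference. Dropping the filter, a minimum mean of 4 RPM and no trend cannot change the 2 differences. The replicate block gave the same differences as leaving out cKO replicate 4. The log2 difference of Defb41 was -2.39 with a pseudocount of 5 RPM, -4.81 as deposited and -4.85 with voom, and -4.44 to -3.09 with a library left out; that of Gdap1 ran from -1.45 to -1.19. Transcripts past the limma threshold numbered 1038, 553 with a pseudocount of 5 RPM, 303 without a filter and 280 (without WT replicate 2) to 1287 (without cKO replicate 4) with a library left out. Higher and lower calls were 683 and 355, 458 and 531 after median centring, 428 and 442 after quantile normalisation, and 836 and 310 scaled to reads within transcripts. Median centring gave 1 neighbour (Gm18775, -1.29) and 1 mitochondrial gene (Parl) past the threshold, and leaving out libraries 0 to 1 of the latter and no neighbour. Defensins past it were 1 with a pseudocount of 5 RPM, as deposited, or at a mean of at least 4 RPM, and 1 to 2 with a library left out. Antimicrobial and GDAP1 family counts were 0 throughout. The cause of these shifts was not tested.

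Deviations from the group means of same-numbered libraries had r = 0.192, 0.294 and -0.129, and those of libraries with different numbers ran from -0.551 to 0.608. With 3 pairs this cannot tell whether the numbers pair the oocytes. With the replicate block 1403 transcripts passed, and the differences were -3.96 for Defb41 and -1.33 for Gdap1. Defb41 had 6 to 17 reads in each cKO library and Defa3 1 read over all 4, which limits their folds.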
